A study of Homo sapiens with 4 samples.

Results

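The JAK, STAT and SOCS genes measured here were 4 Janus kinases (JAK1, JAK2, JAK3 and TYK2), 3 STAT transcription factors (STAT3, STAT5A and STAT5B) and 3 feedback inhibitors (SOCS2, SOCS3 and CISH). Their members were all non-control array probes that the scanner files name for one of these 10 genes, which gave 22 of 41000 probes, 8 for the JAKs, 8 for the STATs and 6 for the inhibitors. All 22 had values throughout and entered the test, as did 40974 probes in total. Each probe was kept apart, because the probes of a gene can read different parts of its transcripts. For 19 of the 22 the file gives a RefSeq accession, and all 19 matched the same current symbol, while 3 carry another accession.

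The RNA came from Meg-01, an established human megakaryoblastic leukemia line. GATA1, the transcription factor that directs megakaryocyte and erythroid genes, had been knocked down in the cells with a lentiviral shRNA, and the stable clones GATA1 5-13 and GATA1 4-14 were each expanded from 1 soft agar colony after puromycin selection. The control, GATA1 Neg, was a pool of Meg-01 cells that carried a lentiviral shRNA without a human target, so that clonal differences and the knockdown cannot be told apart within a clone. No drug treatment is named for these cultures, and the extraction text of the labels speaks of CMK, another megakaryoblastic line, where all other labels say Meg-01. Each of 4 two-colour Agilent arrays set a clone against GATA1 Neg, with the clone labelled in red on 1 array and in green on the other. The 2 dye-swap arrays of a clone were averaged, which left n = 2 clones. Values below are log2 ratios of the clone over GATA1 Neg, given in the order of the red and then the green array.

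JAKs are tyrosine kinases bound to the tails of cytokine receptors. A cytokine brings the receptor chains together, the JAKs phosphorylate them and the STATs that dock there, and the STATs then enter the nucleus and switch on genes, among them SOCS and CISH, whose products shut the receptor down again. In blood precursors this route carries the signal of erythropoietin, which acts through JAK2 and STAT5.

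GATA1 itself had log2 ratios of -0.21 and -0.34 in GATA1 5-13 and of -0.43 and -0.58 in GATA1 4-14 (probe A_24_P374244). It was lower on 4 of 4 arrays, the direction of the knockdown that the labels name. On this probe 82.7% of the control level was left in GATA1 5-13 and 70.6% in GATA1 4-14. Between 61.6% and 66.4% of the spots per array were well above background in a channel and 0 were saturated. Of 8 megakaryocyte genes used as markers, 4 were well above background in GATA1 Neg on all 4 arrays (ITGA2B, ITGB3, GP1BA and GP9), while PF4, PPBP, VWF and SELP were not. All 6 erythroid markers were above it as well, LYZ was the only one of 5 monocyte or granulocyte markers, and 2 of 5 lymphoid markers were. In such bulk RNA, fewer cells of a type and less RNA per cell cannot be told apart. Probes on which 1 RNA was not well above background have only a bound, and the offset used in the background correction makes the ratios of dim probes smaller than they were.

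After Benjamini-Hochberg adjustment in limma, 0 of the 22 probes passed an adjusted p of 0.05, as did 0 of all 40974. At an unadjusted p of at most 0.005 in the same limma test, 0 of the 22 probes were called. The background was 0.574% of all probes lower and 0.327% higher. The study applied this cutoff to p-values of the Rosetta Resolver error model, a different test that was not run here. At an unadjusted p under 0.05, 2 of the 22 were lower (a JAK1 and a JAK3 probe; background 4.04%) and 1 was higher (a STAT3 probe; background 3.38%), which is 3 in either direction against 7.42% of all probes. An error-weighted mean of the 4 arrays, which counts arrays and not clones as replicates, called 7 of the 22 at an adjusted p of 0.05, namely both JAK1 probes, JAK3 A_24_P59667 and the 4 of STAT3. The share of all probes that it called is not given here, so the 7 of 22 has no background. With GATA1 Neg RNA on every array, the control's own spread was not measured.

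The direction was the same on all 4 arrays for 11 of the 22 probes, 6 of them lower (background 13.4%) and 5 higher (background 12.8%). The background covers all 40974 probes, of which 23803 were well above background in both RNAs on all arrays. Among the 22 members, 18 were. The 6 lower ones were both JAK1 probes and 1 each of JAK3, TYK2, STAT5B and SOCS3. The 5 higher ones were the JAK2 probe, 3 of the 4 STAT3 probes and 1 of SOCS2. Of these, STAT3 A_24_P923962 was below background in the control and JAK3 A_24_P59667 on 1 array of GATA1 5-13, so their signs rest on signals near background. The median log2 ratio over the 22 probes was 0.05, at 0.23 in GATA1 5-13 and -0.05 in GATA1 4-14, where the median over all probes was 0.00 in each clone. By family, the median was -0.06 for the JAK probes, 0.24 for the STAT probes and 0.05 for the SOCS2, SOCS3 and CISH probes. In the single clones these medians were -0.04 (GATA1 5-13) and -0.08 (GATA1 4-14) for the JAK probes, 0.41 and 0.02 for the STAT probes and 0.24 and -0.09 for the others.

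**Figure D1:**
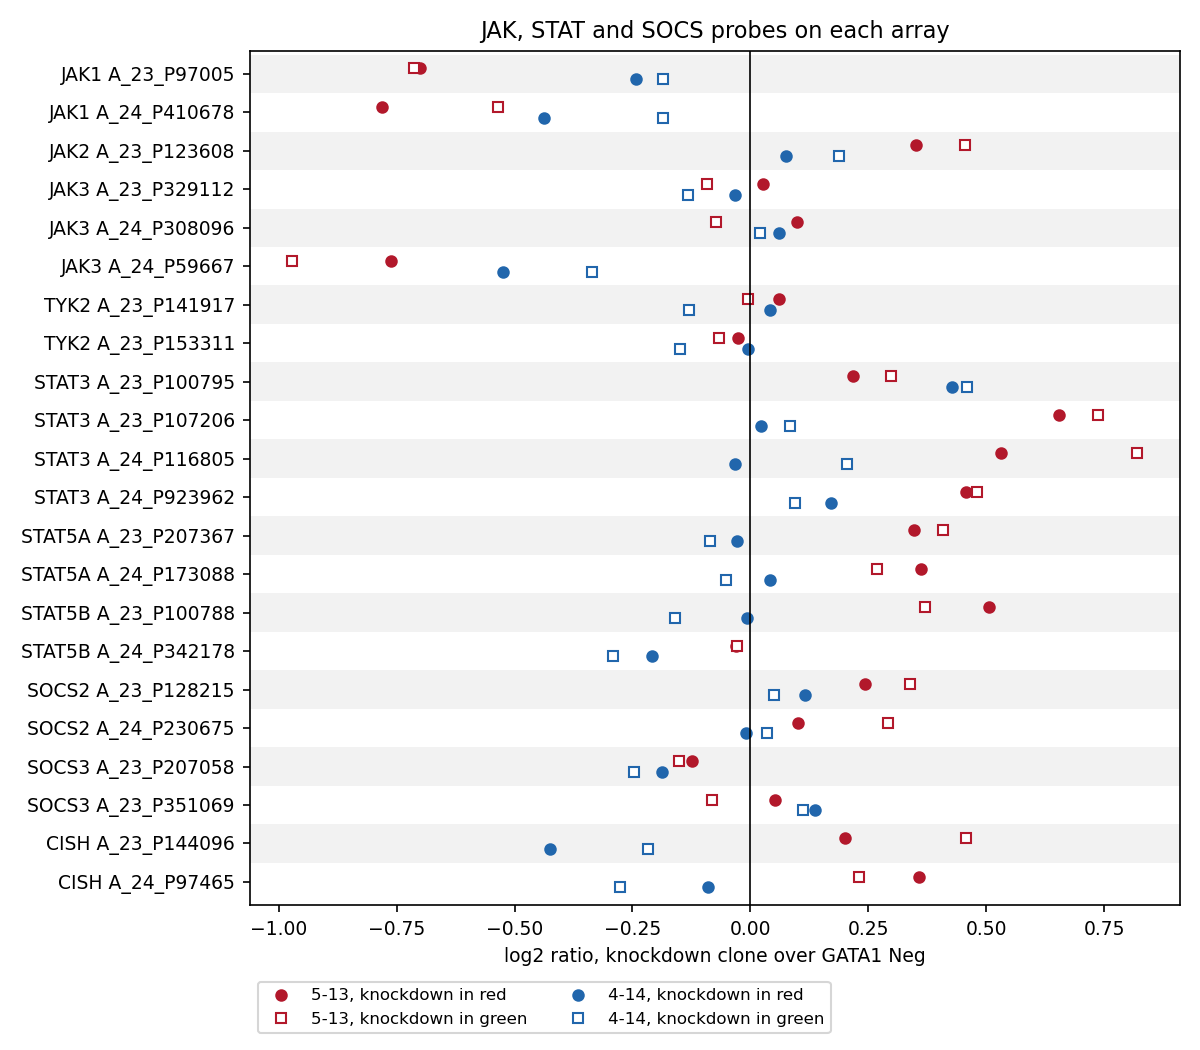
Log2 ratio of knockdown clone over GATA1 Neg (x axis) of each of the 22 probes (rows) on the 4 arrays. Red points are GATA1 5-13 and blue points GATA1 4-14, filled with the clone in red and open with the clone in green. Both JAK1 probes and JAK3 A_24_P59667 lay left of 0 on all 4 arrays, and the CISH and several STAT5 points of the 2 clones lay on opposite sides of 0.

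JAK1, the kinase shared by the interferon, gp130 and common gamma chain receptors, was lower in both clones on both of its probes. Probe A_23_P97005 (hg18 chromosome 1, 65074458 to 65076233) had log2 ratios of -0.70 and -0.71 in GATA1 5-13 and of -0.24 and -0.19 in GATA1 4-14. Its normalized intensity was 7469 and 7088 in GATA1 5-13 against 12132 and 11628 in GATA1 Neg on the same arrays. In GATA1 4-14 it was 9984 and 10192 against 11806 and 11593. All 4 control values thus lay above all 4 clone values, with GATA1 5-13 the lowest. This left 61.3% of the control level in GATA1 5-13 and 86.2% in GATA1 4-14, a mean log2 ratio of -0.46 ± 0.35 (SD, n = 2 clones, limma adjusted p = 0.677).

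The second JAK1 probe, A_24_P410678 (chromosome 1, 65105209 to 65105268), does not overlap the first. It had log2 ratios of -0.78 and -0.54 in GATA1 5-13 and of -0.44 and -0.19 in GATA1 4-14. Its intensity was 736 and 817 in GATA1 5-13 and 960 and 1006 in GATA1 4-14, under the 1145 to 1299 of GATA1 Neg. The mean log2 ratio was -0.49 ± 0.25 (SD, n = 2 clones, limma adjusted p = 0.620), with a 95% interval of -0.84 to -0.13 before adjustment for the number of probes. Both probes therefore showed the same order of the clones, with GATA1 5-13 below GATA1 4-14 on every array pair.

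Other genes of chromosome 1 also lay below the control in GATA1 5-13. Over the 2395 probes of other genes on it that were well above background in both RNAs, the median log2 ratio was -0.15 in GATA1 5-13, with 27.8% above 0, and -0.02 in GATA1 4-14. Within 500 kb of JAK1, 12 such probes of 10 genes had a median of -0.17 and a lowest value of -0.36 in GATA1 5-13, and a median of 0.11 in the other clone. Both JAK1 probes lay below the lowest of these neighbours in GATA1 5-13. The part of the chromosome in the JAK1 values was not tested.

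The letters GATAA, which contain the GATA that GATA factors bind, were searched on both strands. Of the 3 JAK1 promoter windows in RefSeq (GRCh38.p14, from 250 bases before to 50 after a transcript start), 1 held them. It is shown because JAK1 was the member with both probes lower on all 4 arrays in these GATA1 knockdown clones; capitals mark the match, at position -242 from the start, on chr1:64966887-64967186, minus strand.

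JAK1 promoter: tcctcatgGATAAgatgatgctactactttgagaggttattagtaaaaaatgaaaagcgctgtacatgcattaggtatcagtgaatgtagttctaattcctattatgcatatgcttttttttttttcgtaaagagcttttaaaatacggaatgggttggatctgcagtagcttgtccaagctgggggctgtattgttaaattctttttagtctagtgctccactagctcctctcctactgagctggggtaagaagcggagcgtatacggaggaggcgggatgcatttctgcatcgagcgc

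GATAA was in 22.7% of the 35116 RefSeq promoter windows of this length, and in 1 of the 17 windows of the 9 members that the table holds. A match is a description of the letters and not a binding site.

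JAK2, which serves the erythropoietin receptor, was higher in both clones. Its only probe, A_23_P123608 (chromosome 9, 5116773 to 5116832), was printed at 10 spots per array and had log2 ratios of 0.35 and 0.46 in GATA1 5-13 and of 0.08 and 0.19 in GATA1 4-14. The intensity was 1853 and 1940 in GATA1 5-13 and 1544 and 1573 in GATA1 4-14, all above the 1381 to 1465 of GATA1 Neg. The spots of an array had an SD of 0.03 to 0.05 around these means, and those of the 2 clones did not overlap, with 0.29 as the lowest spot in GATA1 5-13 and 0.26 as the highest in GATA1 4-14. Spots of 1 array are not separate samples. The mean over the clones was 0.27 ± 0.19 (SD, n = 2 clones, limma adjusted p = 0.681). JAK2 thus went the opposite way to JAK1 on all 4 arrays.

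JAK3, the kinase of the common gamma chain, gave 3 different pictures on its 3 probes. Probe A_24_P59667 (chromosome 19, 17796597 to 17796656), named for the accession BC028068, had log2 ratios of -0.76 and -0.97 in GATA1 5-13 and of -0.53 and -0.34 in GATA1 4-14. Its intensity was low, at 136 and 87.6 in GATA1 5-13 against 231 and 172 in GATA1 Neg, and at 132 and 155 in GATA1 4-14 against 190 and 195. In GATA1 5-13 it was well above background on 1 of 2 arrays. The mean was -0.65 ± 0.31 (SD, n = 2 clones, limma adjusted p = 0.597). Its size depended on the background step, with a mean of -0.23 when no background was corrected and of -1.62 in the log ratios of Feature Extraction.

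The other two JAK3 probes carry the RefSeq accession NM_000215. A_24_P308096 (chromosome 19, 17798526 to 17798585) had log2 ratios of 0.10, -0.07, 0.06 and 0.02, a mean of 0.03 with a 95% interval of -0.14 to 0.20 (limma). A_23_P329112 (chromosome 19, 17798280 to 17798339) was not well above background in any RNA on any array. The lower JAK3 signal was thus seen on the BC028068 probe and not on the RefSeq probe that could be read.

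TYK2, the JAK of the type I interferon and interleukin-12 receptors, lay close to 0. Probe A_23_P153311 (chromosome 19, 10322376 to 10322435) had log2 ratios of -0.03, -0.07, 0.00 and -0.15, lower on 4 of 4 arrays, with a mean of -0.06 and a 95% interval of -0.23 to 0.11. Probe A_23_P141917 (chromosome 19, 10325877 to 10326213) had a mean of -0.01 with an interval of -0.19 to 0.17, and its direction differed between arrays.

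**Figure D2:**
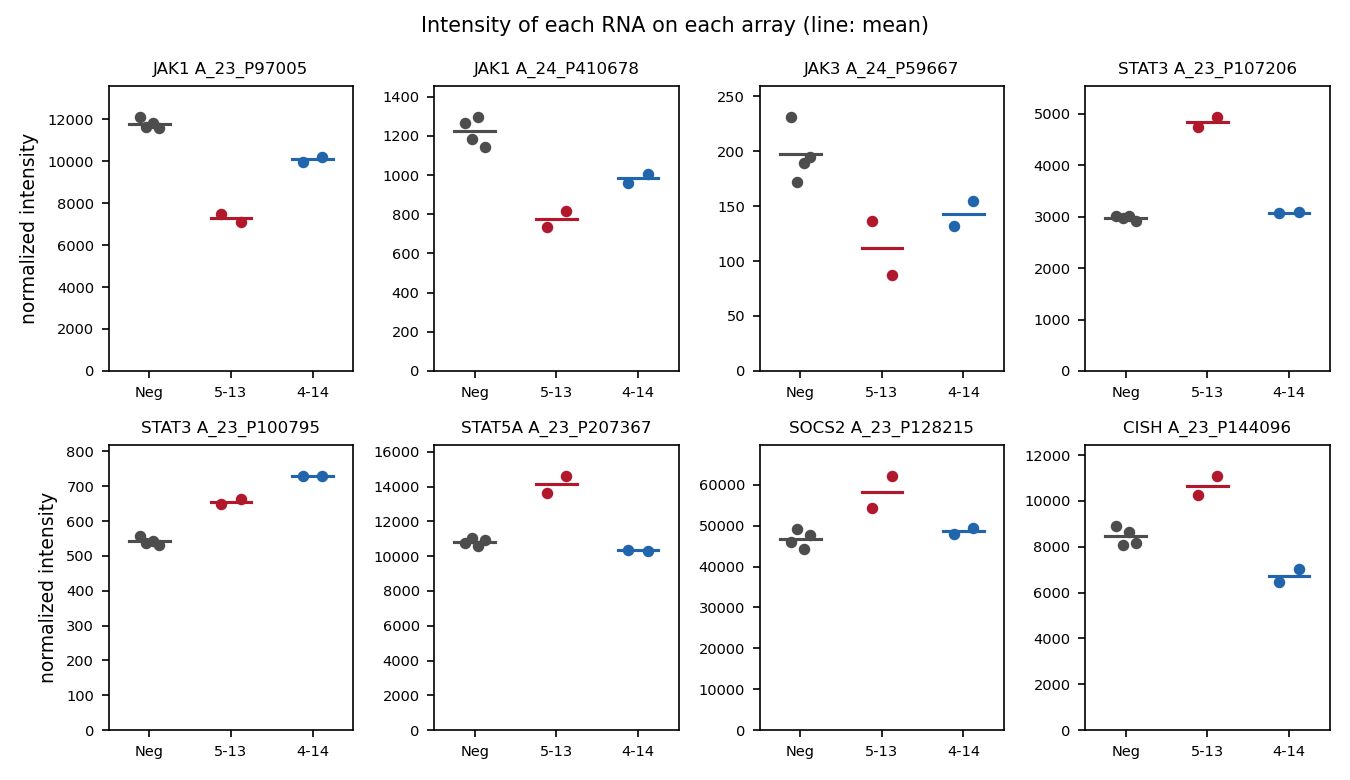
Normalized intensity (linear y axis from 0) of 8 member probes in GATA1 Neg (grey, 4 arrays), GATA1 5-13 (red, 2 arrays) and GATA1 4-14 (blue, 2 arrays), with a line at each mean. Each panel has its own scale and levels of different probes cannot be compared. The JAK1 panels show both clones under the control, the STAT3 A_23_P107206 panel GATA1 5-13 far above it and GATA1 4-14 close to it, and the CISH panel the clones on either side of it.

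STAT3, the STAT of the interleukin-6 family, had 4 probes, and their means all lay above 0. Probe A_23_P107206 (chromosome 17, 37727910 to 37727969), with 10 spots per array, had log2 ratios of 0.65 and 0.74 in GATA1 5-13 and of 0.02 and 0.08 in GATA1 4-14. Its intensity was 4736 and 4948 in GATA1 5-13 against 3010 and 2970 in GATA1 Neg. In GATA1 4-14 it was 3068 and 3083 against 3019 and 2909. The clone GATA1 5-13 thus stood 1.62-fold above the control and GATA1 4-14 at 1.04-fold. The lowest spot in GATA1 5-13 was 0.61 and the highest in GATA1 4-14 was 0.12, far beyond the spread among spots of an array (SD 0.02 to 0.04), but spots of 1 array are not separate samples. The mean over the clones was 0.37 ± 0.45 (SD, n = 2 clones, limma adjusted p = 0.721).

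Probe A_24_P116805 (chromosome 17, 37727930 to 37727989) shares 40 of its 60 bases with that probe, so it is no separate reading of the transcript. It had log2 ratios of 0.53 and 0.82 in GATA1 5-13 and of -0.03 and 0.21 in GATA1 4-14. Probe A_23_P100795 (chromosome 17, 37719449 to 37719508), which shares no bases with them, had the clones in the other order, with 0.22 and 0.30 in GATA1 5-13 and 0.43 and 0.46 in GATA1 4-14. Its intensity was 649 and 662 in GATA1 5-13 and 730 and 730 in GATA1 4-14, above the 531 to 558 of GATA1 Neg. The mean was 0.35 ± 0.13 (SD, n = 2 clones, limma adjusted p = 0.602), with a 95% interval of 0.11 to 0.59 before adjustment.

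The fourth STAT3 probe, A_24_P923962 (chromosome 17, 37793006 to 37793065, accession BC029783), could not be read in the control RNA. In GATA1 5-13, where both arrays read it, the signal was higher by a factor of 1.34 or more, the bound being the mean of that clone over the lowest signal among probes well above background or over the control's own signal where that was higher. In GATA1 4-14 both RNAs were below background and no fold is given. STAT3 was therefore higher in GATA1 5-13 on both arrays of each probe whose RNAs could be read. In GATA1 4-14 it was higher on A_23_P100795. The overlapping probes A_23_P107206 (0.02 and 0.08) and A_24_P116805 (-0.03 and 0.21) lay close to the control in that clone.

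**Figure D3:**
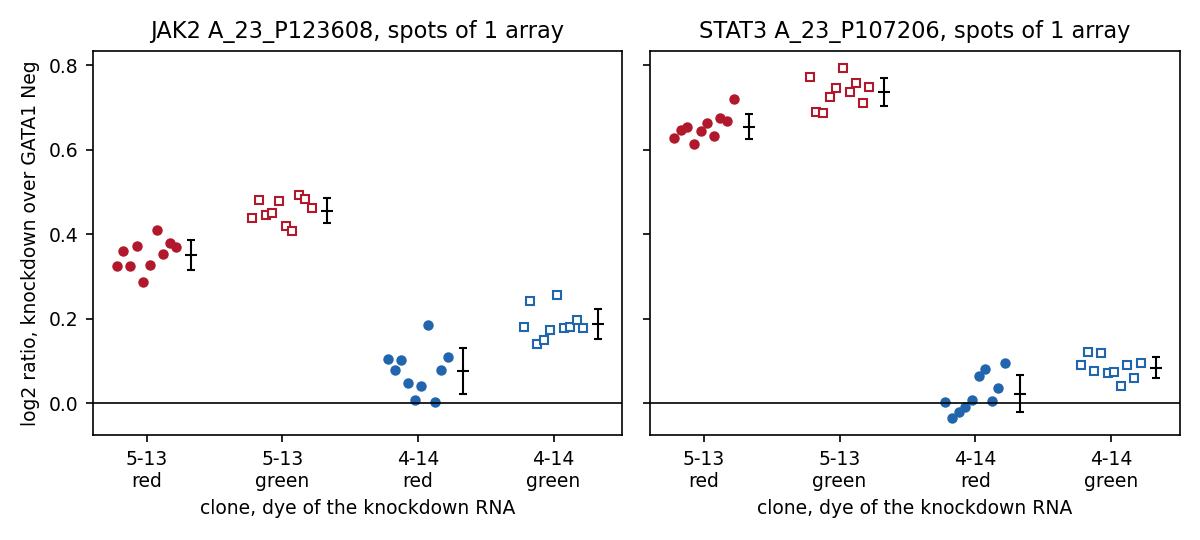
Log2 ratio (y axis) at each of the 10 spots per array of the JAK2 probe (left) and the STAT3 probe A_23_P107206 (right), by clone and dye of the clone's RNA (x axis), with the mean and SD over spots as bars. In GATA1 5-13 the STAT3 spots lay between 0.61 and 0.79 and in GATA1 4-14 between -0.03 and 0.12; spots show the error of an array, not that of the clones.

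STAT5A and STAT5B, neighbouring genes for the STATs of erythropoietin and prolactin signals, separated the clones. STAT5A probe A_23_P207367 (chromosome 17, 37717009 to 37717068) had log2 ratios of 0.35 and 0.41 in GATA1 5-13 and of -0.03 and -0.09 in GATA1 4-14. Its intensity was 13650 and 14623 in GATA1 5-13 against 10739 and 11024 in GATA1 Neg, and 10367 and 10304 in GATA1 4-14 against 10568 and 10932. GATA1 5-13 was thus above the control on both arrays and GATA1 4-14 slightly below it on both. The mean of 0.16 ± 0.31 (SD, n = 2 clones, limma adjusted p = 0.800) describes neither clone.

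The second STAT5A probe, A_24_P173088 (chromosome 17, 37713838 to 37714610), had 0.36 and 0.27 in GATA1 5-13 and 0.04 and -0.05 in GATA1 4-14. STAT5B probe A_23_P100788 (chromosome 17, 37615719 to 37615778) had 0.51 and 0.37 in GATA1 5-13 and -0.01 and -0.16 in GATA1 4-14 (adjusted p = 0.812 from limma, mean 0.18 ± 0.37, SD over n = 2 clones). These 3 probes agreed on a higher signal in GATA1 5-13 of 1.24- to 1.36-fold. STAT5B probe A_24_P342178 (chromosome 17, 37623634 to 37623693, accession BC020868) did not, with -0.03 and -0.03 in GATA1 5-13 and -0.21 and -0.29 in GATA1 4-14.

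STAT3, STAT5A and STAT5B lie side by side on chromosome 17, and the signal of their neighbours in GATA1 5-13 was also higher. Within 500 kb of the 3 genes, 49 probes of 36 other genes were well above background in both RNAs, and 38 of them had a log2 ratio above 0 in GATA1 5-13, with a median of 0.17. In GATA1 4-14, 20 of the 49 were above 0 and the median was -0.01. The 31 probes beyond STAT3 had a median of 0.30 in GATA1 5-13, and the 18 probes on the STAT5B side one of 0.12. Over chromosome 17 as a whole the median in that clone was 0.02, and of 23803 such probes on the array 48.3% were above 0. The part of this stretch of chromosome in the STAT values was not tested.

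**Figure D4:**
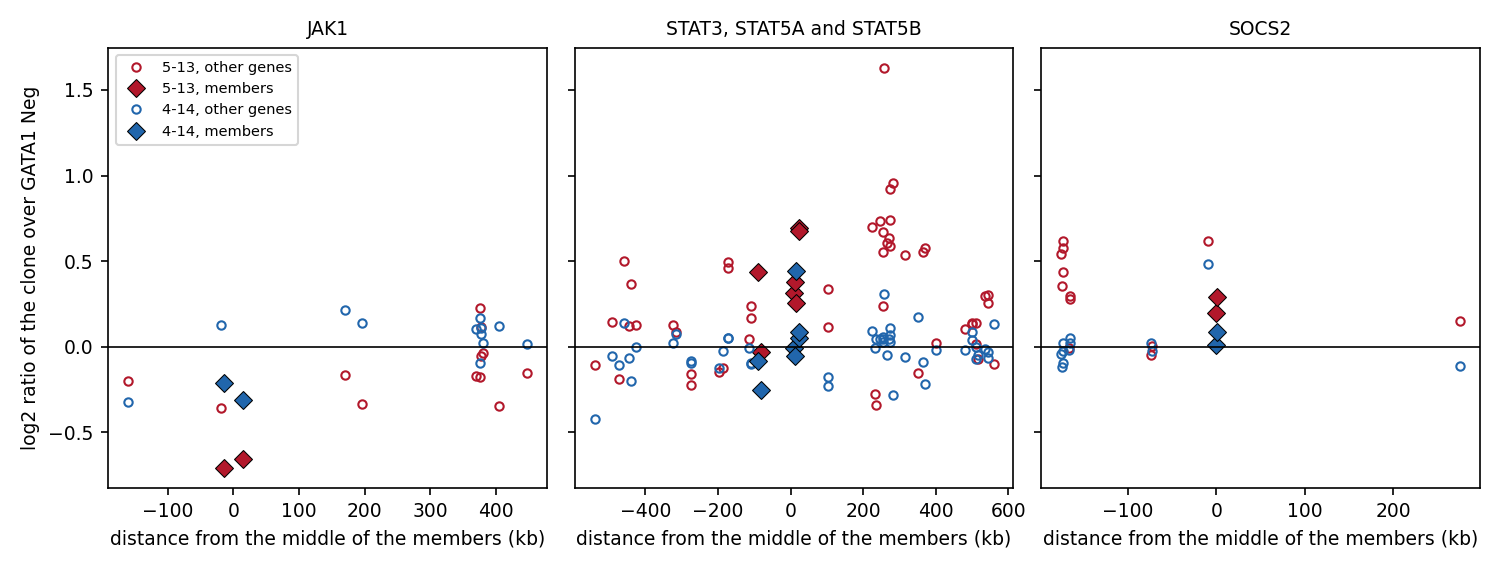
Log2 ratio of clone over GATA1 Neg (y axis) against the distance in kb from the middle of the members (x axis) for JAK1, for STAT3 with STAT5A and STAT5B, and for SOCS2. Diamonds are the member probes and open circles probes of other genes within 500 kb, red in GATA1 5-13 and blue in GATA1 4-14, all well above background in both RNAs; in the middle and right panels most red circles lie above 0, while the blue circles lie around 0.

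SOCS2, an inhibitor of growth hormone and STAT5 signals, was read on both of its probes and lay slightly above the control in GATA1 5-13. Probe A_23_P128215 (chromosome 12, 92493930 to 92493989) had log2 ratios of 0.24 and 0.34 in GATA1 5-13 and of 0.12 and 0.05 in GATA1 4-14 (adjusted p = 0.699 from limma, mean 0.19 ± 0.15, SD over n = 2 clones). Probe A_24_P230675 (chromosome 12, 92492698 to 92492757) had 0.10 and 0.29 in GATA1 5-13 and -0.01 and 0.04 in GATA1 4-14. The 12 readable probes of other genes within 500 kb came from only 5 genes. Their median was 0.33 in GATA1 5-13, with 10 above 0, and -0.02 in GATA1 4-14. Several of them were for NUDT4, at 0.35 to 0.62 in GATA1 5-13, while MRPL42 had -0.05 and 0.01. Both SOCS2 probes lay under the median of 0.33, and the part of the neighbourhood in the SOCS2 values was not tested.

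SOCS3, the inhibitor induced by STAT3 that binds gp130 and the JAKs, was slightly lower in both clones. Probe A_23_P207058 (chromosome 17, 73864722 to 73864781) had log2 ratios of -0.12 and -0.15 in GATA1 5-13 and of -0.19 and -0.25 in GATA1 4-14. The intensity was 366 to 428 in the clones and 431 to 466 in GATA1 Neg, so that the groups did not overlap. The mean was -0.18 ± 0.06 (SD, n = 2 clones, limma adjusted p = 0.677), and the clones differed by less on this probe than on those of JAK1 or STAT5. The other SOCS3 probe, A_23_P351069 (chromosome 17, 73866154 to 73866213), was not well above background in any RNA.

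CISH, a direct STAT5 target whose product blocks STAT5 docking, had the 2 clones on opposite sides of the control on both probes. Probe A_23_P144096 (chromosome 3, 50619027 to 50619086) had log2 ratios of 0.20 and 0.46 in GATA1 5-13 and of -0.42 and -0.22 in GATA1 4-14. Its intensity was 10246 and 11096 in GATA1 5-13 against 8918 and 8085 in GATA1 Neg, and 6445 and 7028 in GATA1 4-14 against 8648 and 8168. The 3 sources of RNA thus did not overlap, with GATA1 5-13 highest and GATA1 4-14 lowest. The mean over the clones was 0.00 ± 0.46 (SD, n = 2 clones, limma adjusted p = 0.998).

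The second CISH probe, A_24_P97465 (chromosome 3, 50620425 to 50620484), showed the same order at a lower intensity. It had log2 ratios of 0.36 and 0.23 in GATA1 5-13 and of -0.09 and -0.28 in GATA1 4-14 (adjusted p = 0.946 from limma, mean 0.06 ± 0.34, SD over n = 2 clones). Within 500 kb of CISH, the 26 readable probes of other genes had medians of -0.03 (GATA1 5-13) and -0.04 (GATA1 4-14). They ran from -0.53 to 0.50 in GATA1 5-13 and from -0.38 to 0.08 in GATA1 4-14. The part of the neighbourhood in the CISH values was not tested.

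The CISH promoter is shown because CISH was the only one of the 9 members in the promoter table with the letters TTCNNNGAA, the palindrome that STAT dimers bind, which reads the same on both strands. The window is chr3:50611725-50612024 of GRCh38.p14, minus strand, from 250 bases before to 50 after the start, and capitals mark its 4 matches, at positions -241, -230, -129 and -112 from the start.

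CISH promoter: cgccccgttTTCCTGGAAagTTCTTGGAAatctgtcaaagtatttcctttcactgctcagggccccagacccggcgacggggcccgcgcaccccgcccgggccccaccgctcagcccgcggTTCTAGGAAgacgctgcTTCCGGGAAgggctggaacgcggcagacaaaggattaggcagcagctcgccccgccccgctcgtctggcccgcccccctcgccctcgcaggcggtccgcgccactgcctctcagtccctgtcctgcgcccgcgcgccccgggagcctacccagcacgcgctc

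At least 1 match was in 7.66% of the 35116 RefSeq promoter windows, and at least 4 matches were in 7 windows, or 0.0199%. The 16 other windows of members, for JAK1, JAK2, JAK3, TYK2, STAT3, STAT5A, STAT5B and SOCS3, held none of these letters, which says nothing of STAT binding outside them.

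Erythroid marker genes split between the clones in the same way as CISH. Of the 10 probes for the 6 erythroid genes, 9 were well above background in both RNAs on all arrays, and 7 of these were higher in GATA1 5-13 and lower in GATA1 4-14. ALAS2, the first enzyme of heme synthesis in red cells, stood at 0.70 in GATA1 5-13 and -0.41 in GATA1 4-14 on A_32_P22654, and the fetal globin HBG1 had 1.00 and -0.38 on A_23_P53137. Over the 10 probes the values ran from -0.17 to 1.00 in GATA1 5-13 and from -0.47 to -0.08 in GATA1 4-14. Their summed intensity was 195534 to 414308 in GATA1 Neg, 458477 to 463142 in GATA1 5-13 and 233325 to 367783 in GATA1 4-14, and none of the 6 genes was at 0. Of 13 megakaryocyte probes, 6 were readable in both RNAs and 0 split this way. All 6 were below 0 in GATA1 5-13, and in GATA1 4-14 the 2 readable ITGB3 probes were above 0 and the other 4 below. The summed intensity of the 13 was 16705 to 17711 in GATA1 Neg, 12606 to 13050 in GATA1 5-13 and 15274 to 15602 in GATA1 4-14. The part of the erythroid and megakaryocyte genes in the member values was not tested.

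Between the clones, 13 of the 22 probes had both arrays of GATA1 5-13 above both arrays of GATA1 4-14, where 24.2% of all probes did, and 5 of 22 had them below, where 25.2% of all probes did. The 13 were the JAK2 probe, 3 of 4 STAT3 probes, SOCS3 A_23_P207058 and all 8 probes of STAT5A, STAT5B, SOCS2 and CISH. The 5 were both JAK1 probes, JAK3 A_24_P59667, STAT3 A_23_P100795 and SOCS3 A_23_P351069. In GATA1 5-13, 3 of the 22 were past a log2 ratio of -0.5 on both arrays (the JAK1 probes and JAK3 A_24_P59667; background 2.76%) and 2 were past 0.5 (STAT3 A_23_P107206 and A_24_P116805, which overlap; background 1.88%). In GATA1 4-14 it was 0 of 22 in either direction, against 0.942% of all probes lower and 1.03% higher. The absolute ratio was larger in GATA1 5-13 for 14 of 22 probes and for 61.8% of all probes. All these shares cover readable and unreadable probes together. The difference between the clones was not tested, since each is 1 sample, and both share the control RNA.

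The difference between the 2 dye-swap arrays of a clone includes the effect of the dye and is not the error of their mean. Over the 22 probes its median was 0.10 on the log2 scale in GATA1 5-13 and 0.09 in GATA1 4-14. The largest differences were 0.29 and 0.25. Over all probes the median was 0.10 in GATA1 5-13 and 0.10 in GATA1 4-14.

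Around the members, 106 of 107 further genes of the pathway were on the array with 172 probes, which were the receptors that signal through JAKs, their ligands, the other STAT, SOCS and PIAS proteins, phosphatases and adaptors, and genes known as STAT3 or STAT5 targets. Adjusted p passed 0.05 in limma for 0 of the 172, and in the error-weighted mean for 28. No share of all probes is given beside the 28. At an unadjusted p of at most 0.005, 4 were lower and 4 higher, where 0.574% of all probes were lower and 0.327% higher. At one under 0.05, 16 were lower and 13 higher, against 4.04% and 3.38% of all probes. The median log2 ratio over the 172 was 0.01.

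Among the 60 receptor probes, 3 were lower and 1 higher at 0.005, and 9 were lower and 7 higher at an unadjusted p under 0.05, beside the same shares of all probes (0.574% and 0.327%, then 4.04% and 3.38%). Both readable probes of IL10RA, the ligand-binding chain for interleukin-10 that works with JAK1, had close values in the 2 clones, and its remaining probe, A_24_P52733, was not well above background in any RNA. A_23_P203173 had -1.56 and -1.57 in GATA1 5-13 and -1.58 and -1.54 in GATA1 4-14, which left 33.8% and 33.9% of the control level (adjusted p = 0.300 from limma). On A_24_P107303 the log2 ratios were -1.29 (GATA1 5-13) and -1.26 (GATA1 4-14) (adjusted p = 0.300 from limma). IFNAR2, the interferon receptor chain that binds JAK1, had -0.63 and -0.61 (A_23_P211080, adjusted p = 0.443 from limma). IFNAR2 lies on chromosome 21, where 258 readable probes had medians of -0.14 (GATA1 5-13) and -0.22 (GATA1 4-14), a part that was not tested.

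IL3RA, the interleukin-3 receptor chain, was read on A_32_P217750 in the clones, but GATA1 Neg was well above background on only 1 array, which puts GATA1 4-14 at 1.33-fold or more above the control. EPOR, the erythropoietin receptor that JAK2 serves, which was named after its values were seen, had -0.28 in GATA1 5-13 and -0.29 in GATA1 4-14 on A_23_P367899, and -0.29 and -0.32 on A_23_P381954 (adjusted p = 0.576 and 0.575 from limma). Both EPOR probes were thus lower on 4 of 4 arrays, where JAK2 was higher on 4 of 4. The third EPOR probe was not well above background.

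Of the 29 ligand probes, 1 was lower and 0 were higher at 0.005 (all probes 0.574% and 0.327%). Among the 29, 19 were not well above background in either RNA on any array. IL7, a lymphoid growth factor, stood at -0.47 in GATA1 5-13 and -0.52 in GATA1 4-14 (A_23_P8961, adjusted p = 0.504 from limma). IL6, the ligand that signals through gp130 to STAT3, had 0.34 in GATA1 5-13 and 0.75 in GATA1 4-14 (A_23_P71037, adjusted p = 0.627 from limma). IL6 was thus higher on all 4 arrays, with GATA1 4-14 above GATA1 5-13, the order seen on STAT3 A_23_P100795 and not on the other STAT3 probes.

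Of the 24 probes for other STAT, SOCS and PIAS proteins, 0 passed 0.005 (all probes 0.574% lower and 0.327% higher). At an unadjusted p under 0.05, 2 were lower and 0 higher (all probes 4.04% and 3.38%). These 2 are probes of 1 gene, STAT4. STAT4, the STAT of interleukin-12, had -1.09 in GATA1 5-13 and -0.57 in GATA1 4-14 (A_23_P68031, adjusted p = 0.576 from limma). SOCS1, the inhibitor of interferon signals, had -0.35 and 0.00 (A_23_P420196, adjusted p = 0.755 from limma). Of the 26 probes for phosphatases, adaptors and ubiquitin ligases, 0 passed 0.005. At an unadjusted p under 0.05, 3 were lower and 1 higher, beside the same shares of all probes. PTPN1, a phosphatase that acts on JAK2 and TYK2, had -0.34 and -0.47 (A_23_P338890, adjusted p = 0.563 from limma), and PTPRC, the CD45 phosphatase encoded on chromosome 1, had -0.96 and -0.34 (A_23_P125451, adjusted p = 0.659 from limma).

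Of the 33 probes for genes known as STAT3 or STAT5 targets, 0 were lower and 3 higher at 0.005, and 1 was lower and 4 higher at an unadjusted p under 0.05 (all probes 0.574% and 0.327%, then 4.04% and 3.38%). The 3 were all those of CCND1, the cyclin D1 gene, with 0.87 and 0.61 on A_23_P202837, 0.64 and 0.46 on A_24_P124550, and 0.71 and 0.74 on A_24_P193011 in GATA1 5-13 and GATA1 4-14 (adjusted p of 0.526, 0.548 and 0.403 from limma). CCND1 is 1 gene and also answers to many other signals. The median of the target probes was 0.17 in GATA1 5-13 and -0.01 in GATA1 4-14.

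**Figure D5:**
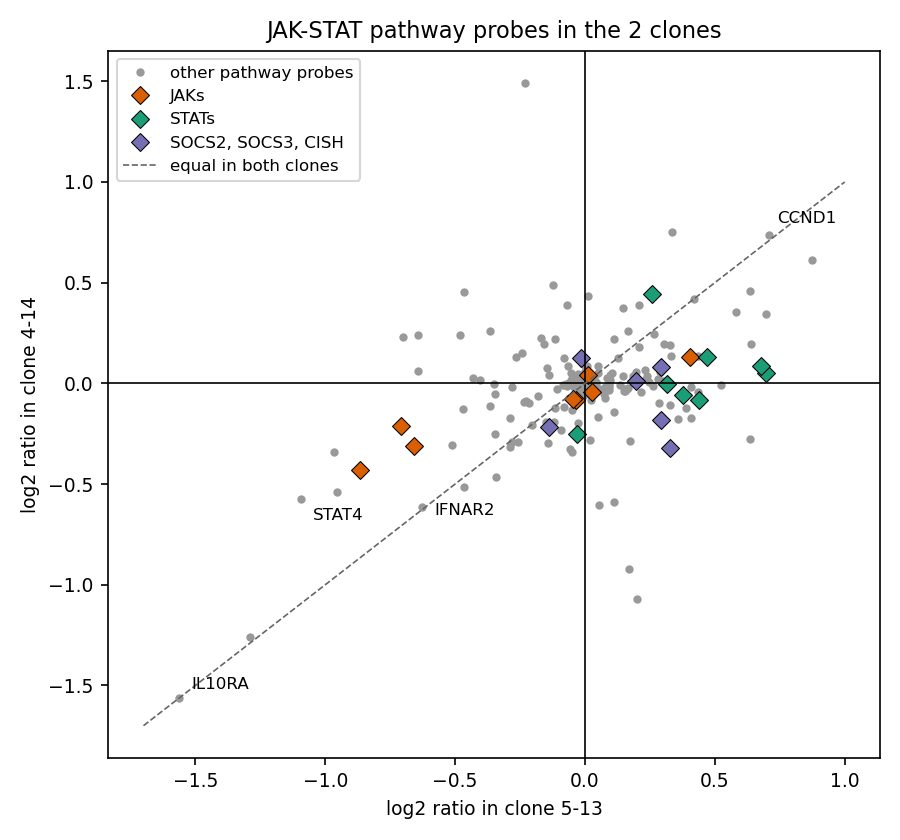
Log2 ratio in GATA1 5-13 (x axis) against that in GATA1 4-14 (y axis) for the 22 JAK, STAT and SOCS probes (diamonds) and the 172 probes of the other pathway genes (grey points), with a dashed line at equal values. IL10RA at -1.56 in both clones and IFNAR2 lie on the line, while most STAT diamonds lie to the right of 0 and close to 0 on the y axis; both clones share the control RNA, so no relation is read from the plot.

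The member probe with the largest absolute mean that was readable in all RNAs was JAK1 A_24_P410678. The 3 probes of other genes nearest to it, by the Euclidean distance over the 4 log2 ratios, were those of YES1 (a Src family kinase, distance 0.0561), PCSK1 (a prohormone convertase) and MEF2C (a transcription factor, 0.0868). YES1 had -0.66 and -0.31 in the 2 clones, close to the -0.66 and -0.31 of JAK1, and MEF2C had -0.68 and -0.36. PCSK1 could not be read in either clone, so its place here rests on signals below background, with bounds of at least 1.33-fold lower (GATA1 5-13) and at least 1.26-fold lower (GATA1 4-14).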

How the data were processed

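The authors deposited the scanner output of 4 arrays made by Feature Extraction 9.5.3.1. Probe positions are on hg18. The spot and background intensities used here were deposited by the authors as linear, uncorrected values. The log10 ratios that the authors deposited, in the same files and in a table of the whole series that differs from them by at most 4.97e-06 once turned to clone over control, served as alternatives. The labels' scanner files also hold error-model p-values, which were not used. The positions were not checked against gene models of hg18, which were not used here.

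In limma 3.58.1 (R 4.3.3), backgrounds were corrected with normexp (offset 50), loess was run within arrays with control spots at weight 0, 135 to 152 outlier spots of 43376 per array were left out, spots of a probe were averaged, and arrays with the clone in green were turned. The 2 arrays of a clone were averaged, since no source names separate RNA extracts, and the mean of 2 clones was set against 0 in a two-sided moderated test, adjusted by Benjamini-Hochberg over 40974 probes. The p-values rest on the spread between the 2 clones, which limma draws toward the spread over all probes. The spread of the shared control RNA does not enter them. Intensities are those after loess and Aquantile. The number of arrays limits the precision. A likeness was the Euclidean distance over the 4 log2 ratios.

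Named were all member probes, GATA1, pathway probes at an unadjusted p of at most 0.005 or past 0.5 on all 4 arrays (at most 8 each way), the 2 largest readable ones of each list, and the 3 nearest to a member. The members and gene lists were chosen with earlier results of these data known. The fit was also run on simulated data whose clones varied independently, unlike the clones here, which shared the control RNA. Motifs were searched in RefSeq promoter windows (GRCh38.p14); SOCS2 was not in that table. As alternatives, the background was left uncorrected, the deposited log10 ratios or the series-wide table took the place of the intensities, loess gave way to median centring, Aquantile or a filter on dim probes was added, outliers were kept, an intensity trend was fitted, each array counted as a value of its own (first without, then with the replicate number as a block), the arrays were combined by an error-weighted mean, and each array or clone was left out. Replicate numbers mark the dye orientation, and the deviations of same-numbered arrays correlated with r = 0.77 across probes, as 2 pairs that mirror each other. The numbers pair no samples by animal or culture. An item of the gene lists is not reported here.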

Additional observations from a re-analysis of the deposited data

Results flagged for a closer look

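For 4 of the 22 probes every array of GATA1 5-13 lay above GATA1 Neg and every array of GATA1 4-14 below it. Among all probes, 15.9% had the clones on opposite sides of the control on all arrays, in either direction. The 4 of 22 thus lie close to the share over all probes, and both CISH probes are among the 4. STAT5B A_23_P100788 stood at 0.438 on the log2 scale in GATA1 5-13 and at -0.0836 in GATA1 4-14. STAT5A A_23_P207367 had 0.377 and -0.0566. CISH had 0.328 and -0.321 on A_23_P144096 and 0.294 and -0.184 on A_24_P97465. The difference between the clones was not tested, because each clone is 1 sample against a shared control.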

How the results depend on the processing

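With 2 clones the test had about 3.06 degrees of freedom, and the depth of the result is set by this number and by signal over background, which 4 of the 22 member probes did not reach in some RNA. Of 371 recomputed log2 ratios of members over 17 alternatives, 354 kept their sign, and 14 of the 22 probes kept it in all of them. These counts overstate stability, since several alternatives could not turn a sign. Aquantile, the filter on dim probes, the intensity trend and the fits with each array as a value leave the mean unchanged. Keeping outliers changed no member value, and the series-wide values repeat the log ratios of Feature Extraction. The clones alone have no test. Near background the size moved too. JAK3 A_24_P59667 went from -0.65 to -0.23 with no background correction and to -1.62 with Feature Extraction's log ratios, and STAT3 A_24_P923962 from 0.30 to 0.087 and 0.80.

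At an adjusted p under 0.05, 0 member probes were called in the reported fit, 2 with the 4 arrays as 4 values and no replicate block (STAT3 A_23_P100795 and JAK3 A_24_P59667, adjusted p = 0.0373 and 0.0425 from limma), 0 with the replicate block and 7 with the error-weighted mean. At an unadjusted p of at most 0.005 the count was 0, then 3 without and 1 with the replicate block, 7 with the error-weighted mean and 0 to 1 with an array left out. At an unadjusted p under 0.05 it was 3, and 1 with the log ratios of Feature Extraction or with the series-wide values, 5 with an intensity trend, 10 without and 8 with the replicate block, 10 with the error-weighted mean and 4 to 5 with an array left out. For the 172 pathway probes, 0 were called at an adjusted p under 0.05, 17 without and 5 with the replicate block, and 28 with the error-weighted mean. At 0.005 the 8 became 5 with Feature Extraction's log ratios, with the series-wide values and with the filter on dim probes, 25 without and 20 with the replicate block, 29 with the error-weighted mean and 6 to 9 with an array left out. At an unadjusted p under 0.05 the 29 became 46 without and 45 with the replicate block and 49 with the error-weighted mean. The 4 arrays as 4 values and the error-weighted mean take arrays, not clones, as the replicates. The shares of all probes called under the alternatives are not given, so these counts have no background. Probes past 0.5 in GATA1 5-13 were 5, and 3 with no background correction and 0 past a log2 ratio of 1. In GATA1 4-14 they were 0, and 2 with the log ratios of Feature Extraction or the series-wide values. The causes were not tested.

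Signs turned for probes whose mean lay near 0 or whose clones lay apart. TYK2 A_23_P141917 became 0.00067 with no background correction, 0.0054 with Feature Extraction's log ratios and the series-wide values, 0.0078 with the error-weighted mean, 0.027 without GATA1 4-14 and -0.052 to 0.035 with an array left out. CISH A_23_P144096 became -0.32 without GATA1 5-13 and -0.060 to 0.068 with an array left out. Without GATA1 5-13, STAT5B A_23_P100788 became -0.084, STAT5A A_23_P207367 -0.057, STAT5A A_24_P173088 -0.0045 and CISH A_24_P97465 -0.18. SOCS3 A_23_P351069 became -0.061 with the error-weighted mean and -0.015 without GATA1 4-14, and JAK3 A_24_P308096 ran from -0.016 to 0.069 with an array left out.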
